A study of Caenorhabditis elegans with 4 samples.

Results

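The cytochrome P450 genes of Caenorhabditis elegans were examined in lsm-8 mutant and wild-type L1 larvae that hatched without food and were then fed again. Members were the genes of the count table whose WormBase name has the form cyp, a family number, a subfamily letter and a gene number (cyp-35A2, for example). This gave 73 of 20392 genes, in 25 subfamilies and 15 families. The reference names 74 such genes, and cyp-31A5 was not analysed here. The P450 gene daf-9 carries a name of another form and is described with its pathway.

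Total RNA was sequenced from 2 libraries of each genotype. Wild-type larvae were the N2 Bristol strain (GW1 / N2). Mutant larvae came from strain GW1125, labelled lsm-8-/-, with the allele xe17 on chromosome IV, in which myo2p::mcherry::unc54 3'UTR is present as a red marker, kept over the balancer nT1[qIs51], which gives a green pharynx. Larvae of both genotypes hatched over 16 hours without bacteria, were sorted for L1 size and absence of green, and were fed again for 2.5 hours. The mutant larvae thus came from a balanced stock, whose mothers carry a wild-type copy of the gene. Whether the libraries of a genotype came from separate cultures is not stated. The p-values rest on the spread between the 2 libraries of a genotype, taken over both genotypes and moderated across genes. That spread may be technical only. LSM-8 belongs to a ring of nuclear Sm-like proteins that holds U6 RNA and acts in RNA decay in the nucleus, and the comparison asks which transcripts differ in its mutant. Protein was not measured.

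P450 enzymes are heme proteins that insert an oxygen atom into their substrates, using electrons passed on by a reductase or by cytochrome b5. Some have fixed substrates such as fatty acids and sterols, and others oxidize foreign compounds in the phase of detoxification that precedes conjugation. In worms many P450 genes are expressed in the intestine, and several of the cyp-35 genes are widely used as reporters of exposure to foreign compounds. The worm family has expanded by tandem duplication, so that many members lie side by side.

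Library totals ran from 50755251 to 101230177 counts, and the mutant libraries were the deeper ones. The lsm-8 transcript itself stood at 15.4 and 15.9 CPM (counts scaled to library size, with TMM) in wild type and at 3.25 and 3.73 CPM in the mutant (log2 fold change -2.17, SE 0.11, edgeR adjusted p = 3.85e-11). Every P450 member passed the filter on low counts, and the lowest count of a member in a library was 7. All fold changes are mutant over wild type. A gene was called higher or lower at an adjusted p under 0.05 over all 16771 genes tested with edgeR.

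In the mutant, 17 of 73 P450 genes rose, 13 fell and 43 were not called (7 of these had an unadjusted p under 0.05). This was 23.3% of members higher and 17.8% lower, where over all genes 13.5% were called higher and 14.8% lower. The percentages over all genes depend on scaling: with library totals only, 2920 genes were higher and 1907 lower, against 2258 and 2479 with TMM, while the P450 counts were 17 and 12. Calls are more frequent among well-expressed genes. Among the 28 members with a mean of at least 5 CPM, 10 were higher (35.7%) and 7 lower, against 18.6% and 20.4% of all genes of that level. The median log2 fold change of the members was 0.09 (middle 50% from -0.26 to 0.43), and that of all genes was -0.01 (-0.21 to 0.21). Changes of at least 2-fold were called in 4 members that rose and 5 that fell, against 1.65% and 1.7% of all genes. Both mutant libraries lay above both wild-type libraries in 27 members and below them in 20 (over all genes 30.9% and 31.9%), and the genotypes overlapped in 26. Summed over all members, P450 transcripts made up 517.3 and 507.9 CPM in wild type and 494.5 and 554.5 CPM in the mutant, so the summed level of the genotypes overlapped while single genes moved in opposite directions. In whole larvae, fewer cells of a type and less RNA per cell cannot be told apart.

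**Figure D1:**
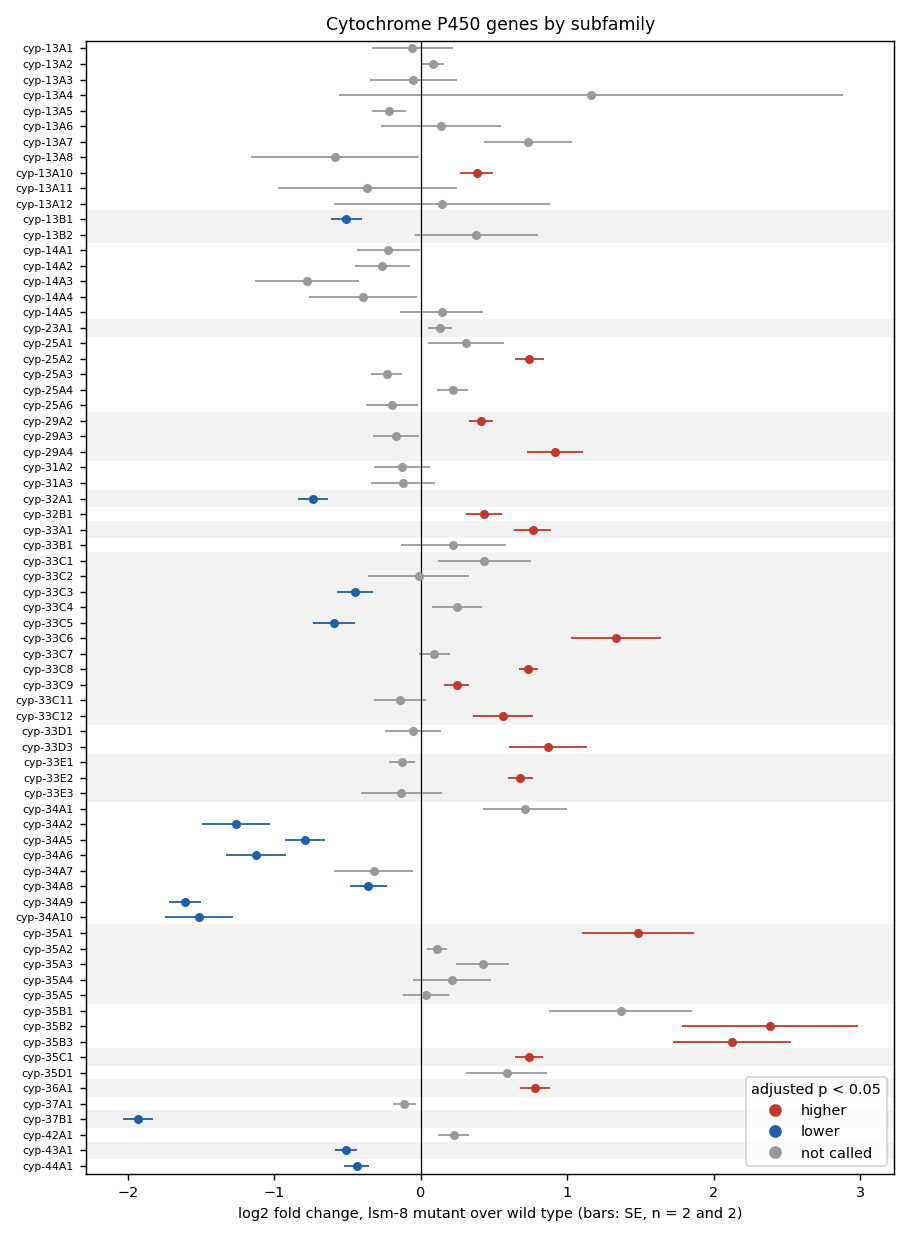
Log2 fold change (lsm-8 mutant over wild type, x axis) of each of the 73 P450 genes (y axis, shaded by subfamily). Points are edgeR estimates from 2 libraries of each genotype, bars are standard errors, and colours mark the 17 genes called higher, the 13 called lower and the 43 not called. The cyp-34A genes lie mostly left of 0 and the cyp-35 genes right of it.

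Levels were compared between genes per length, as reads per kilobase of the deposited gene width and library size (RPKM). In wild type they ran from 0.130 RPKM for cyp-35B3 to 17.3 RPKM for cyp-33C8, a 133-fold range with a median of 1.51. The 10 highest members held 45.9% of the summed P450 RPKM. The order at the top was cyp-33C8 (16.9 and 17.7 RPKM in the 2 wild-type libraries), cyp-37B1 (18.8 and 15.5), cyp-35A2 (15.7 and 16.03), cyp-13A2 (15.1 and 14.3) and cyp-34A9 (15.4 and 12.7). The libraries of cyp-37B1 spanned those of cyp-33C8 and cyp-35A2, and those of cyp-34A9 spanned those of cyp-13A2, so these neighbours did not differ beyond their spread. For cyp-23A1 the deposited width exceeds the span of the gene in the annotation used for names, so its RPKM may be too low.

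The mutant had another order. Levels of cyp-33C8 reached 28.9 and 28.7 RPKM and stayed first, cyp-37B1 went from rank 2 to rank 25 and cyp-34A9 from rank 5 to rank 24, while cyp-33A1 went from rank 14 to rank 3. Several abundant members were not called. Of these, cyp-35A2 stood at 15.8 ± 0.268 RPKM in wild type and 17.1 ± 0.605 RPKM in the mutant (SD, n = 2 each, log2 fold change 0.11, SE 0.07), and cyp-13A2 at 14.7 ± 0.535 and 15.6 ± 0.686 RPKM (0.08, SE 0.07). The others among the 8 most abundant members without a call were cyp-37A1, cyp-33C7, cyp-33E1, cyp-14A5, cyp-13A5 and cyp-42A1, with log2 fold changes from -0.22 to 0.22. Across the 73 members, a higher wild-type level went with a slightly lower log2 fold change (Spearman's rho -0.28, a description of genes that share the same 4 libraries and whose wild-type values enter both measures).

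**Figure D2:**
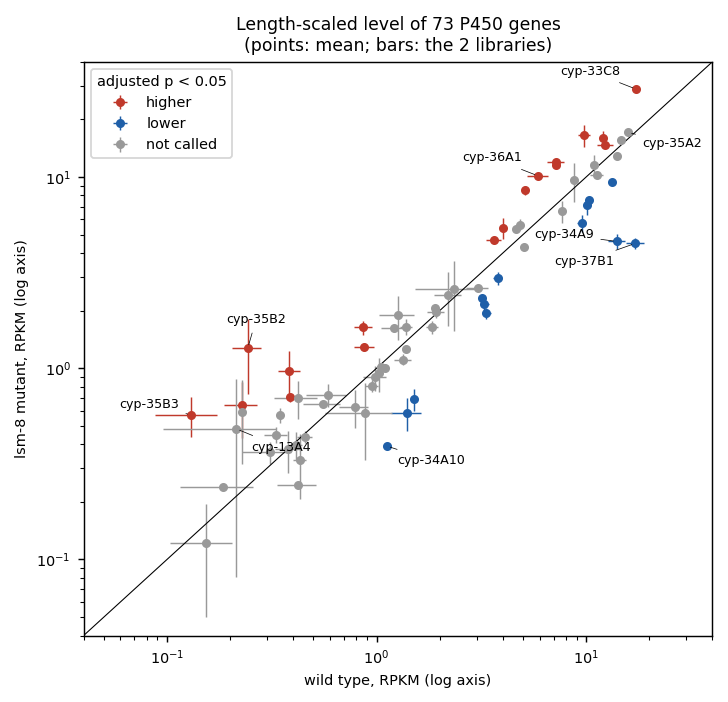
Level of each P450 gene in wild type (x axis) and in the lsm-8 mutant (y axis), in RPKM on log axes. Points are means of 2 libraries, bars reach to the 2 libraries, and the diagonal marks equal levels. The genes cyp-37B1 and cyp-34A9, at 17.1 and 14.02 RPKM in wild type, lie furthest below the diagonal among abundant members.

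Most cyp-34A genes were called lower, where over all genes 14.8% were called lower and 13.5% higher. Of 8 members, 6 fell (75%), 0 rose and 2 were not called, with a median log2 fold change of -0.96. Their summed level was 45.9 and 39.8 CPM in wild type against 18.3 and 21.6 CPM in the mutant. The most abundant member, cyp-34A9 (WBGene00015044), also known as dod-16 for its place downstream of the insulin pathway factor DAF-16, stood at 25.9 and 21.3 CPM in wild type and at 7.03 and 8.44 CPM in the mutant. Both mutant libraries were far below both wild-type libraries, a 3.05-fold fall (log2 fold change -1.61, SE 0.11, adjusted p = 6.40e-09).

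Next to it, cyp-34A10 fell from 1.84 and 1.68 CPM to 0.595 and 0.636 CPM (-1.52, SE 0.23, adjusted p = 6.59e-05). Falls of cyp-34A2 (-1.26, SE 0.23), cyp-34A6 (-1.12, SE 0.21) and cyp-34A5 (-0.79, SE 0.14) were called in every alternative in which they were tested. The fall of cyp-34A8 was small (-0.36, SE 0.13, adjusted p = 0.0391) and it was no longer called when replicate 1 of either genotype was left out (adjusted p = 0.163 without that of wild type, 0.264 without that of the mutant). With all libraries kept, it was not called with library totals only (0.0754), DESeq2 (0.0974) or limma (0.0759). The members without a call were cyp-34A7, whose libraries overlapped between genotypes (0.995 and 1.36 against 0.731 and 1.15 CPM), and cyp-34A1, which was the single member with a positive value (0.526 and 0.520 against 0.780 and 0.938 CPM, log2 fold change 0.71, adjusted p = 0.0747).

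The annotation places a small nuclear or nucleolar RNA gene on the opposite strand of the exons of 7 of the 8 cyp-34A genes, 6 annotated as small nuclear RNA (cyp-34A1, A2, A5, A6, A7 and A9) and 1 as small nucleolar RNA (cyp-34A8). No other P450 gene of the 65 had one. None of these 7 small RNA genes is a row of the count table. No source used here gives the strand setting of the counting. The libraries are stranded per the labels, so counting that used the strand would separate reads of the small RNAs from those of the P450 genes. In counts made without the strand, reads of the small RNAs, if present, cannot be told apart from those of the P450 genes.

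In the cyp-35 family no fall was called, where over all genes 13.5% were called higher and 14.8% lower. Of 10 members, 4 rose, 0 fell and 6 were not called, and all 10 had positive log2 fold changes (median 0.66), the lowest being cyp-35A5 at 0.03, which ran from -0.10 to 0.17 over the alternatives. The genotypes overlapped in 3 members. The summed level was 44.7 and 46.6 CPM in wild type and 58.8 and 61.8 CPM in the mutant. The abundant member cyp-35C1 (WBGene00007362), an intestinal gene induced by foreign compounds, rose from 10.04 and 12.1 CPM to 18.6 and 18.3 CPM, with no overlap of the genotypes (1.67-fold, log2 fold change 0.74, SE 0.09, adjusted p = 8.66e-06). The most abundant member, cyp-35A2, was not called, and neither were cyp-35A3, cyp-35A4, cyp-35A5 or cyp-35D1.

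The largest rises of any P450 gene were those of cyp-35B2 and cyp-35B3, which were scarce in wild type. The gene cyp-35B3 stood at 0.131 and 0.260 CPM in wild type (7 and 13 counts) and at 0.653 and 1.06 CPM in the mutant (67 and 98 counts), 4.36-fold more (2.12 on the log2 scale, SE 0.41, adjusted p = 0.000577). Levels of cyp-35B2 were 0.319 and 0.440 CPM against 1.14 and 2.83 CPM, 5.21-fold more (2.38 on the log2 scale, SE 0.60, adjusted p = 0.0406). The difference was 1.59 on the log2 scale without mutant replicate 2 and 2.90 without mutant replicate 1. The call of cyp-35B2 was lost without a filter on low counts (adjusted p = 0.0719).

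The third member of that subfamily, cyp-35B1, also known as dod-13, stood at 0.394 and 0.380 CPM in wild type and at 0.536 and 1.48 CPM in the mutant. Both mutant libraries were above both wild-type libraries, but they differed 2.75-fold from each other, and the gene was not called (1.36, SE 0.49, adjusted p = 0.0641). It was called without mutant replicate 1 (1.93, adjusted p = 2.39e-06) and had a log2 fold change of 0.47 without mutant replicate 2 (adjusted p = 0.588). With either wild-type library left out it was called as well (adjusted p = 0.00298 without replicate 1, 0.00339 without replicate 2). With all libraries kept it was called by DESeq2 (0.0332) and limma (0.0335). The xenobiotic-induced gene cyp-35A1 rose from 0.263 and 0.380 CPM to 0.605 and 1.196 CPM (1.48, SE 0.38, adjusted p = 0.00698), a call lost without mutant replicate 2 (0.91, adjusted p = 0.216).

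The cyp-33 family, the largest with 18 members, had 7 higher (38.9%), 2 lower (11.1%) and 9 not called, against 13.5% higher and 14.8% lower over all genes. Its summed level was 132.1 and 126.2 CPM in wild type and 159.2 and 176.3 CPM in the mutant. Levels of cyp-33C8 (WBGene00019967), first by mean RPKM in both genotypes though not beyond the spread of cyp-37B1 in wild type, rose from 26.7 and 28.1 CPM to 45.8 and 45.5 CPM (1.66-fold, log2 fold change 0.73, SE 0.07, adjusted p = 1.06e-07). Replicates of each genotype lay close together and far from those of the other genotype.

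Levels of cyp-33A1 rose from 17.3 and 15.2 CPM to 23.9 and 31.3 CPM (0.76, SE 0.12, adjusted p = 0.00122). The gene cyp-33E2, which encodes a pharyngeal enzyme that makes epoxides of eicosapentaenoic acid, rose from 11.5 and 11.2 CPM to 17.6 and 18.7 CPM (0.68, SE 0.09, adjusted p = 6.85e-06), while its neighbour cyp-33E3 and the related cyp-33E1 were not called. Within cyp-33C, 4 of 11 genes rose and 2 fell (36.4% and 18.2%, against 13.5% and 14.8% of all genes).

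Falls were those of cyp-33C3, from 5.63 and 5.76 CPM to 4.12 and 4.24 CPM (-0.45, SE 0.12, adjusted p = 0.0102), and of cyp-33C5, from 4.83 and 5.34 CPM to 3.01 and 3.73 CPM (-0.59, SE 0.14, adjusted p = 0.00380). Neither overlapped between genotypes. Other rises were not called in some alternatives. That of cyp-33C6 (1.33, SE 0.31) was not called without mutant replicate 2 (0.88, adjusted p = 0.0794), that of cyp-33C9 (0.25, SE 0.08) without replicate 2 of either genotype (0.389 for wild type, 0.125 for the mutant), and that of cyp-33D3 (0.87, SE 0.27) without replicate 1 of wild type (0.0511) or replicate 2 of the mutant (0.116). The call of cyp-33C12 (0.56, SE 0.20, adjusted p = 0.0450) held without wild type replicate 2 (0.0213). It ended without any of the other libraries (0.237 without wild type replicate 1, 0.190 without mutant replicate 1 and 0.0614 without mutant replicate 2). With all libraries kept, DESeq2 did not call cyp-33C9 (0.0577), cyp-33D3 (0.0868) or cyp-33C12 (0.145).

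**Figure D3:**
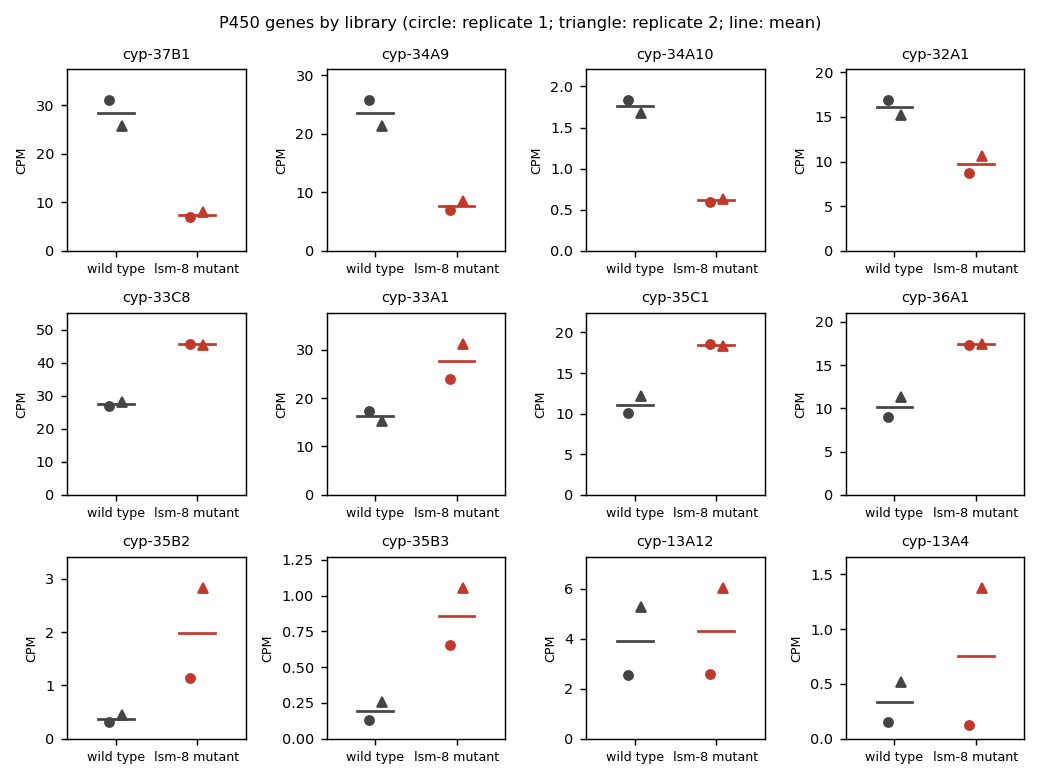
CPM (y axis, from 0) in each of the 4 libraries for 12 P450 genes. Circles are replicate 1, triangles replicate 2 and lines group means. The first 10 panels show called genes, in which the genotypes do not overlap, and cyp-13A12 and cyp-13A4 show members in which replicate 2 is high in both genotypes.

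P450 genes related to the fatty acid hydroxylases of mammals, the families cyp-29, cyp-31, cyp-32, cyp-37 and cyp-42, gave single changes in both directions. The largest fall of any member was that of cyp-37B1 (WBGene00009226), which stood at 31.1 and 25.7 CPM in wild type and at 6.97 and 7.93 CPM in the mutant, a 3.82-fold fall (log2 fold change -1.93, SE 0.10, adjusted p = 1.43e-10). Both mutant libraries were far below both wild-type libraries. Its exons overlap those of F28G4.2 on the opposite strand, which had 0.465 CPM in wild type against 0.472 CPM in the mutant.

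The related cyp-37A1 was not called (22.1 and 21.7 against 19.3 and 21.2 CPM). Levels of cyp-32A1 fell from 16.9 and 15.2 CPM to 8.71 and 10.6 CPM (-0.74, SE 0.10, adjusted p = 2.31e-05), and those of cyp-32B1 rose from 6.48 and 6.28 CPM to 7.52 and 9.70 CPM (0.43, SE 0.12, adjusted p = 0.0136). The rise of cyp-32B1 was not called without mutant replicate 2 (0.23, adjusted p = 0.258).

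In the cyp-29A subfamily, cyp-29A2 rose from 21.03 and 20.7 CPM to 25.6 and 29.8 CPM (0.41, SE 0.08, adjusted p = 0.000808). The scarcer cyp-29A4 rose from 1.22 and 1.48 CPM to 2.33 and 2.77 CPM (0.92, SE 0.19, adjusted p = 0.00123). Neither overlapped between genotypes. The eicosanoid hydroxylase gene cyp-29A3 was not called (3.17 and 2.78 against 2.84 and 2.45 CPM). The pair cyp-31A2 and cyp-31A3, which act with the reductase EMB-8 in eggshell formation and are near-identical, so that their reads may be split, was at 3.34 and 3.40 CPM in sum in wild type and at 3.42 and 2.74 CPM in the mutant, and neither gene was called.

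The cyp-13, cyp-25 and cyp-43 genes are related to the mammalian CYP3A enzymes of drug oxidation. Calls were 1 higher and 1 lower among 13 cyp-13 genes, 1 higher among 5 cyp-25 genes and 1 lower for the single cyp-43 gene. Over all genes 13.5% were called higher and 14.8% lower. In cyp-25A, cyp-25A2 alone of 5 genes was called, rising from 7.74 and 7.70 CPM to 12.2 and 13.6 CPM (0.74, SE 0.10, adjusted p = 1.41e-05). Its neighbours cyp-25A1, cyp-25A3 and cyp-25A4 had log2 fold changes of 0.31, -0.23 and 0.22. The gene cyp-43A1 fell from 25.01 and 25.5 CPM to 18.2 and 17.3 CPM (-0.51, SE 0.08, adjusted p = 4.35e-05). Its exons overlap those of C41G11.1 on the opposite strand, which was not called (-0.36, adjusted p = 0.0756).

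Of 13 cyp-13 genes, cyp-13A10 rose and cyp-13B1 fell. Levels of cyp-13B1 went from 17.9 and 16.5 CPM to 10.7 and 13.4 CPM (-0.51, SE 0.10, adjusted p = 0.00105). Those of cyp-13A10 went from 5.80 and 6.80 CPM to 8.36 and 8.03 CPM (0.38, SE 0.11, adjusted p = 0.0160), which was not called when wild type replicate 1 (0.140) or mutant replicate 1 (0.0566) was left out.

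Families with 1 member included cyp-36 and cyp-44. The gene cyp-36A1 (WBGene00007913), which acts downstream of the hypoxia factor HIF-1, rose from 8.97 and 11.4 CPM to 17.4 and 17.5 CPM, without overlap (1.72-fold, log2 fold change 0.78, SE 0.10, adjusted p = 9.67e-06). Its exons overlap those of figo-1 on the opposite strand, which was more abundant and not called (55.7 against 51.1 CPM, -0.12, adjusted p = 0.151). The gene cyp-44A1, which encodes a P450 of the mitochondrial type, fell from 19.1 and 17.4 CPM to 13.5 and 13.4 CPM (-0.44, SE 0.08, adjusted p = 0.000654). Its exons overlap those of the more abundant npp-24 on the same strand, which was not called (33.8 against 35.7 CPM, 0.08, adjusted p = 0.412), and how the counting assigned reads over both is not stated. Of the 5 cyp-14A genes, several of which respond to foreign compounds, 0 were called with edgeR and 0 with DESeq2. With edgeR, 1 of them (cyp-14A3) had an unadjusted p under 0.05, and 28.2% of all genes were called in either direction. Both mutant libraries lay below both wild-type libraries for cyp-14A1, cyp-14A2 and cyp-14A3, as they did for 31.9% of all genes tested.

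Many members lie in runs. With at most 3 other protein-coding genes between neighbours, 45 members formed 11 runs and 28 stood alone. The longest, on chromosome V, holds 10 genes in the order cyp-35A5, cyp-35B1, cyp-35B2, cyp-35B3, cyp-34A5, cyp-34A6, cyp-34A7, cyp-34A8, cyp-34A9 and cyp-34A10. The cyp-35 genes of the run lie on the plus strand and the cyp-34A genes on the minus strand. The direction of the called changes split at the boundary of the subfamilies. Log2 fold changes of the 4 cyp-35 genes ran from 0.03 to 2.38, with 2 called higher, and those of the 6 cyp-34A genes from -1.61 to -0.32, with 5 called lower. Without a call were cyp-35A5, cyp-35B1 and cyp-34A7, and the genotypes overlapped for cyp-35A5 and cyp-34A7.

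A second run on chromosome V, of cyp-33C4, cyp-33C3, cyp-33C5, cyp-33C6 and cyp-33C7, held falls of cyp-33C3 and cyp-33C5 beside the rise of cyp-33C6. In the run of 8 genes on chromosome II, cyp-13A1 to cyp-13A8, 0 genes were called with edgeR or with DESeq2, and 1 (cyp-13A7) had an unadjusted p under 0.05 with edgeR. Of the 45 members in runs, 8 were higher and 8 lower (17.8% each), and of the 28 alone 9 were higher (32.1%) and 5 lower (17.9%). Over all genes 13.5% were called higher and 14.8% lower. The summed wild-type level was 202.2 CPM for members in runs and 310.4 CPM for those alone, and the difference in calls was not tested.

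**Figure D4:**
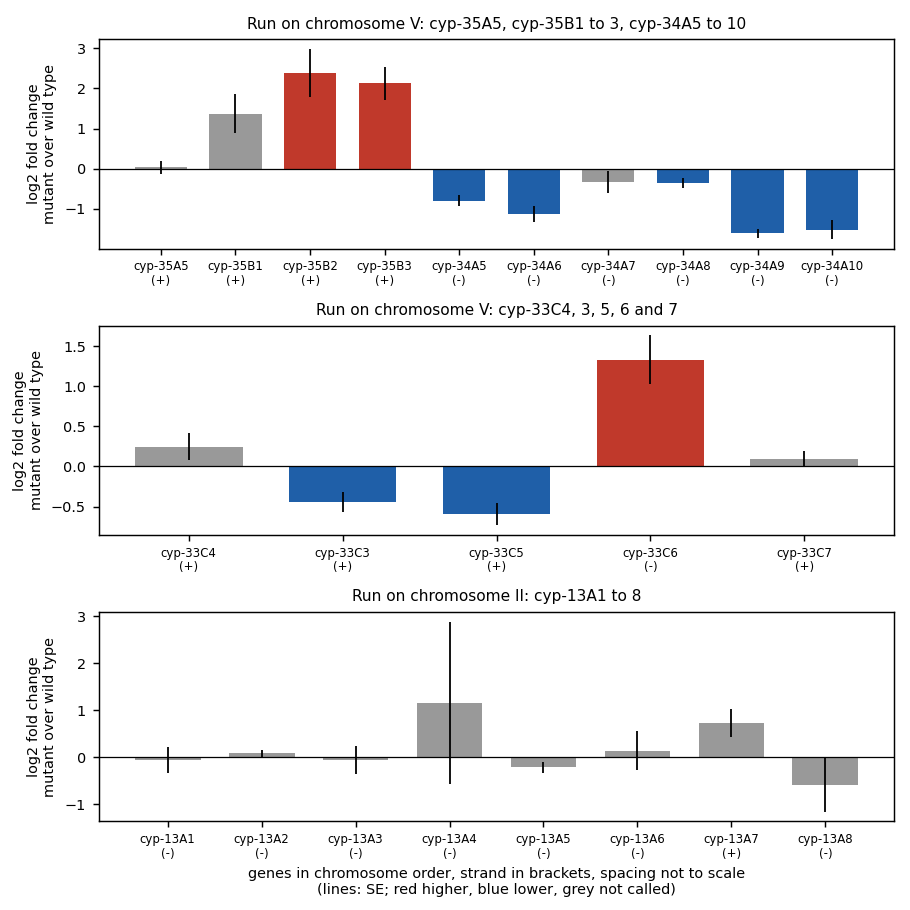
Log2 fold change (mutant over wild type, y axis) of the members of 3 runs of neighbouring P450 genes, in chromosome order with strand in brackets. Bars are edgeR estimates, lines standard errors, red is called higher, blue lower and grey not called. In the top panel cyp-35B2 and cyp-35B3, at 2.38 and 2.12, stand beside cyp-34A5 to cyp-34A10, all below 0.

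By chromosome, 41 of the 73 members lie on chromosome V, and 13 of these rose and 10 fell (31.7% and 24.4%, against 14.7% and 14.2% of all genes tested on that chromosome). Genes of chromosome IV, where lsm-8 lies, were called higher in 21.8% and lower in 9.07%, and there 1 of 6 members (cyp-33E2) was higher. Outside chromosome IV, 16 of 67 members were higher and 13 lower. On chromosome X, 0 of 7 members were higher and 2 were lower (cyp-13B1 and cyp-43A1), against 12.9% and 15.2% of all genes there. Among the 929 other tested genes with a width between 1506 and 1659 bases, the middle 50% of P450 widths, 14.5% were higher and 15.9% lower, with a median log2 fold change of 0.01.

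Some members differed over 1.5-fold between libraries of a genotype, and in some of these, such as cyp-13A12, that difference exceeded the one between genotypes. In the mutant, 15 of 73 members were over 1.5 times higher in replicate 2 than in replicate 1 and 2 members, cyp-31A3 and cyp-35D1, were that much lower. Those 15 included 6 of the 11 cyp-13A genes and all 3 cyp-35B genes. In wild type, 8 members were that much higher in replicate 2 and 3 in replicate 1. For cyp-13A4, cyp-13A7, cyp-13A8, cyp-13A12 and cyp-35B3, replicate 2 was higher in both genotypes.

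The clearest case was cyp-13A12, which in published work acts in a response to a return of oxygen that HIF-1 regulates. It stood at 2.55 and 5.28 CPM in wild type and at 2.60 and 6.05 CPM in the mutant, so the genotypes overlapped (0.14, SE 0.74, adjusted p = 0.920). Without mutant replicate 2 its log2 fold change was -0.59 (adjusted p = 0.0121) and without wild type replicate 2 it was 0.75 (0.000272), so 1 library decided its direction. Without mutant replicate 1 it was 0.63 (0.000869).

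The gene cyp-13A4 stood at 0.150 and 0.520 CPM in wild type and at 0.127 and 1.38 CPM in the mutant. It was not called (1.16, SE 1.72, adjusted p = 0.714), but was called higher when wild type had replicate 1 alone (2.29, adjusted p = 0.000127) or the mutant replicate 2 alone (2.05, 1.81e-06), and it was -1.38 on the log2 scale with the mutant's replicate 1 alone (0.202). The gene cyp-35D1, which is known to metabolize the drug thiabendazole, had the opposite pattern, with replicate 1 higher in both genotypes (2.29 and 1.56 against 3.64 and 2.13 CPM). Its log2 fold change of 0.58 (SE 0.27) was not called, and it was called higher when wild type had replicate 2 alone (adjusted p = 0.000355) or the mutant replicate 1 alone (9.47e-05). Leaving out 1 library leaves a lone sample in its group, which the fit assumes to vary like the other group.

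Other members without a call also gained one when 1 library was left out. Without wild type replicate 2, cyp-35A3 (0.61, adjusted p = 0.0228) and cyp-13A7 (1.10, 0.00816) were higher. Without mutant replicate 1, cyp-13A7 (1.03, 0.0109), cyp-13A6 (0.54, 0.00776) and cyp-14A5 (0.44, 0.000618) were higher. Falls were called for cyp-13A5 without mutant replicate 2 (-0.42, 0.00507) and for cyp-13A8 with either wild type's replicate 1 (-1.04, 0.00124) or the mutant's replicate 2 (-1.40, 0.0009) left out.

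**Figure D5:**
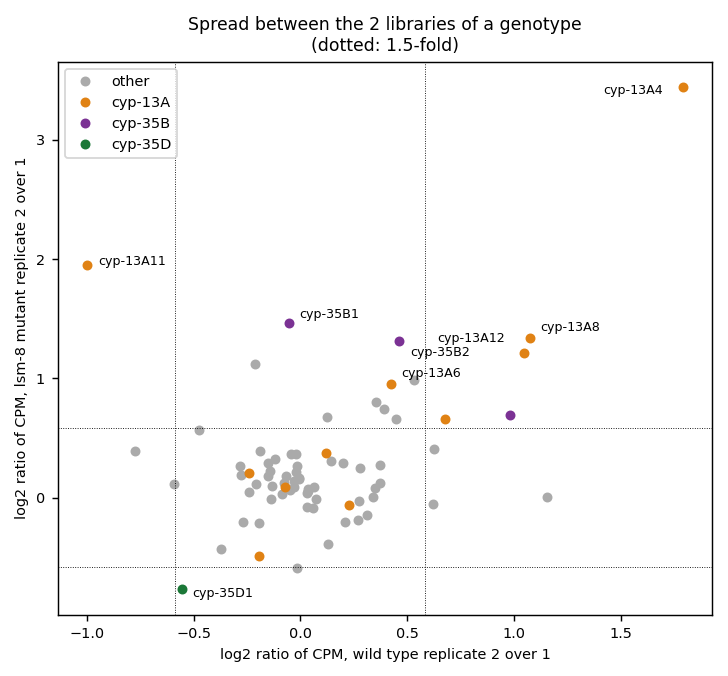
Log2 ratio of CPM in replicate 2 over replicate 1 for each P450 gene, in wild type (x axis) and in the lsm-8 mutant (y axis). Dotted lines mark 1.5-fold. Most members lie near 0 on both axes, and cyp-13A4, cyp-13A7, cyp-13A8, cyp-13A11, cyp-13A12 and cyp-35B3 lie beyond 1.5-fold on both, cyp-13A11 in opposite directions.

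Genes that work with P450 enzymes were described by counts, beside which 18.6% of all genes of at least 5 CPM were called higher and 20.4% lower. Among 5 electron partners, the NADPH-P450 reductase gene emb-8 fell from 174.5 and 175.7 CPM to 134.2 and 142.05 CPM (-0.34, SE 0.06, adjusted p = 0.000138), and the cytochrome b5 gene cytb-5.1 rose (0.25, SE 0.07, adjusted p = 0.00756). The other 3 were not called. In the dafachronic acid pathway, which makes the steroid ligand of the nuclear receptor DAF-12, 4 of 9 genes rose and 1 fell. The Rieske oxygenase gene daf-36 (0.49, SE 0.08) and daf-12 (0.27, SE 0.07) were higher and the sterol transport gene ncr-2 (-0.54, SE 0.18) lower. The P450 gene daf-9 of this pathway was not called (3.38 and 2.70 against 2.99 and 2.75 CPM, -0.08).

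Of 8 genes that make or hydrolyse polyunsaturated fatty acids and their epoxides, 2 rose and 3 fell. The elongase genes elo-2 (0.61, SE 0.06) and elo-1 (0.47, SE 0.07) rose, and the epoxide hydrolase gene ceeh-2 (-0.25, SE 0.09) and the desaturase gene fat-1 (-0.21, SE 0.06) were among those that fell. Among 29 regulators known or thought to act on P450 genes, 14 rose (48.3%), 3 fell (10.3%) and 12 were not called. The largest rises were those of the intestinal GATA factor gene elt-2 (1.56, SE 0.10) and of daf-16 (0.69, SE 0.07). The largest falls were those of nhr-176, whose receptor acts on cyp-35D1 in thiabendazole exposure (-0.69, SE 0.13), and of egl-9, whose product marks HIF-1 for degradation (-0.41, SE 0.06).

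Conjugating enzyme families act after P450 enzymes in detoxification. Over all genes 13.5% were called higher and 14.8% lower, and over those of at least 5 CPM 18.6% and 20.4%. Of 67 ugt genes (UDP-glucuronosyltransferases), 8 rose (11.9%) and 26 fell (38.8%), with a median log2 fold change of -0.17. The largest changes were ugt-15 (-3.67, SE 0.23) and ugt-6 (-1.82, SE 0.11) among falls and ugt-44 (0.96, SE 0.10) and ugt-16 (0.85, SE 0.08) among rises. Of 44 gst genes (glutathione S-transferases), 10 rose (22.7%) and 9 fell (20.5%), with a median of 0.01. Rises were led by gst-38 (1.73, SE 0.11) and gst-37 (1.27, SE 0.32), and falls by gst-29 (-0.96, SE 0.33) and gst-15 (-0.75, SE 0.11). The difference in share of falls between P450 genes (17.8%) and ugt genes (38.8%) was not tested.

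Some tissue markers also differed between genotypes, and their part in the P450 results was not tested. Of tested neuron markers 18.2% were called higher and 0% lower, of epidermis markers 20% and 10%, and of germline markers 0% and 20%. Over all genes the shares were 13.5% higher and 14.8% lower, and over all genes of at least 5 CPM 18.6% and 20.4%. Several epidermis and germline markers stood under 5 CPM, where calls are less frequent. Of 12 structural and regulatory markers of the intestine, 6 rose and 0 fell, and their summed level ran from 3972 to 4008 CPM in wild type and from 4338 to 4486 CPM in the mutant. Among 11 body wall muscle markers 7 rose and 0 fell (11537 to 11577 against 13752 to 14104 CPM). Of these sums, unc-54 held 4986 and 5064 CPM in wild type and 6182 and 6263 CPM in the mutant. The red marker of the mutant carries the unc-54 3'UTR, and its share in the unc-54 counts was not tested. Among 10 pharynx markers, of which 9 were tested, 5 rose and 1 fell (4299 to 4382 against 4929 to 5375 CPM). Of 11 neuron markers 2 rose and 0 fell (2274 to 2306 against 2376 to 2434 CPM). Of 11 epidermis markers, 2 rose and 1 fell among 10 tested (4202 CPM in both wild-type libraries, against 4465 to 4632 CPM), and nhr-73 had no count in 3 of the 4 libraries. Of 11 germline markers, 0 rose and 2 fell among 10 tested (120.8 to 124.2 against 119.3 to 120.2 CPM). No marker was at 0 in all 4 libraries.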

How the data were processed

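The authors deposited raw counts per gene, whole numbers that are not normalized, for 4 libraries of stranded total RNA read as single ends of 50 bases, per the labels. The deposited log2 values equal, from the values, the log2 of the count scaled to the mean library total plus 8. The deposited width was taken as gene length in bases. The submitters' processing notes list Bowtie, edgeR 3.24.0 and ce10 as the build, with no role for each. Counter, annotation and strand setting: not given in the sources used here. Names came from the reference by identifier (19182 of 20392 matched). Chromosomes, gene order and overlaps came from WBcel235, another build, so no coordinate or sequence is given.

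Genes were tested with edgeR 4.0.16 in R 4.3.3 (quasi-likelihood F-test, TMM, filterByExpr, robust dispersion, Benjamini-Hochberg adjustment over 16771 genes, threshold 0.05). The standard error is the log2 fold change over the root of F, and CPM use TMM library sizes. Alternatives used DESeq2 1.42.0, limma 3.58.1, other scalings and filters, a replicate block and single libraries left out. The tests were checked on simulated counts. The limit that no count sets (3 counts, counting error only) is 0.0563 or 0.0600 CPM for wild type, 0.0293 or 0.0323 CPM for the mutant.

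The members and lists were chosen with earlier results of these data known. Named were every called member, the 8 most abundant members not called and, from each list, up to 2 called genes in each direction. Others (uncalled cyp-34A, cyp-35B, cyp-13A and neighbouring genes, daf-9, unc-54, overlap partners) were named after their values were seen. Other near-identical copies besides cyp-31A2 and cyp-31A3 may also share reads.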

Additional observations from a re-analysis of the deposited data

How the results depend on the processing

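The count of P450 genes called was 17 higher and 13 lower. It stayed within 1.5 times these numbers in every alternative run except the stricter filter (at least 5 CPM in 2 libraries), which left 30 members tested, 10 higher and 8 lower. With single libraries left out, the counts ran from 12 to 21 higher and from 12 to 16 lower. The median log2 fold change of the members stayed positive (0.01 to 0.16). All 30 called members kept their direction in all 11 alternatives in which they were tested, and 9 of 17 rises and 12 of 13 falls kept their call. The exception among falls was cyp-34A8. The one result that turned to the opposite direction past the threshold was cyp-13A12, from -0.59 to 0.75 with single libraries left out. With the replicate number as a block, 17 members were higher and 12 lower, and 1767 and 1888 of all genes. The block ended the calls of cyp-34A8 (adjusted p = 0.0821), cyp-33C9 (0.0868) and cyp-33C12 (0.0796), and called cyp-35B1 (0.0407) and cyp-35D1 (0.0350). Same-numbered libraries did not deviate together (r = -0.06 over 16771 genes), so the numbers were not taken as pairs. With DESeq2, 15 members were higher and 12 lower. The cyp-35B and cyp-13A4 values rest on 7 to 26 counts in each wild-type library, and those of cyp-35A1 on 14 and 19. Replicates number 2 per group, and strand and multiply mapped reads could not be checked.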
